A study of Mus musculus with 5 samples.

Results

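The glucocorticoid receptor gene Nr3c1 and 6 genes tied to its action, Sgk1, Fkbp5, Zbtb16, Ddit4, Tsc22d3 and Cables1, were followed in mouse ventromedial hypothalamus (VMH) after electroconvulsive seizures (ECS). The 7 genes were taken by symbol from the array annotation, out of 6650 genes bright enough to be measured. They are read by 13 probe sets (groups of short oligonucleotides that report 1 transcript region), of which 11 passed the brightness filter, at least 1 for each gene. C57Bl/6 mice under isoflurane were given 1 shock or 7 shocks through ear clips, with a current of 25 mA, and the tissue was taken 2 h or 6 h after the last one. Sham mice were handled in the same way, isoflurane included, without current, and were collected at 2 h. The 4 shock groups combined each number of shocks with each time, and the fifth was the 2 h sham, with 1 array each of RNA pooled from 2 or 3 animals. The design text speaks of a repeat with other animals, which is not analysed here. The labels give neither age nor sex.

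Glucocorticoids are the steroid end product of the stress axis, and a seizure is a strong activator of that axis. In the cell the hormone binds the glucocorticoid receptor, which chaperones hold ready in the cytoplasm. The loaded receptor enters the nucleus and binds response elements, each a pair of short sites, or acts through other transcription factors. The VMH is among the brain regions that carry the receptor, and glucocorticoids act there on feeding and metabolism. In a piece of tissue such as this, fewer cells of a type and less RNA per cell cannot be told apart.

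The promoter sequences of the genes are shown for the letters of the glucocorticoid response element. RefSeq windows (GRCm38.p6) ran from 250 bases before to 50 bases after each transcript start. They are described for Sgk1, Tsc22d3, Fkbp5 and Ddit4, with 6, 3, 1 and 1 starts. No window is described for Nr3c1, Zbtb16 or Cables1. The search looked on both strands for the 6-letter sites AGAACA and TGTTCT, which are each other's reverse complement, and for the palindrome in which the first is followed by the second after 3 bases of any kind. The palindrome therefore always contains 2 of the 6-letter sites. Of 32851 mouse promoter windows, 3 held the palindrome (0.00913%) and 6233 held at least 1 of the 6-letter sites (19%). One of those 3 windows belongs to Sgk1. There the palindrome begins 189 bases before the start, and a further 6-letter site lies in front of it. In all, 5 of these sites fell in 3 of the 6 Sgk1 windows. The stretch lies at chr10:21993640-21993745 on the plus strand, and capitals mark the 6-letter sites:

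Sgk1: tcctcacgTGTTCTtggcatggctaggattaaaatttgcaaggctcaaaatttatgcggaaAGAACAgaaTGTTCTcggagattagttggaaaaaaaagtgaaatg

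For Tsc22d3, 1 of the 3 windows held 1 such site, 185 bases before the start, at chrX:140600672-140600737 on the minus strand. It is printed beside the Sgk1 stretch because its single site has no partner 3 bases away, as the capitals show:

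Tsc22d3: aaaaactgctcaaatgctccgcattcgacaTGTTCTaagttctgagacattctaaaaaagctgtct

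No such site was found in the Fkbp5 and Ddit4 windows, which says only that these letters are not in these 300 bases. The cAMP response element TGACGTCA was in none of the 11 windows, against 1.79% of all windows. Its 5-letter core TGACG, on either strand, was in 1 window of Sgk1 and 1 of Tsc22d3, against 20.8% of all windows. The search describes sequence letters and measures no binding. Sgk1 has 1 probe set, and which of the 6 starts it reads was not tested.

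**Figure D1:**
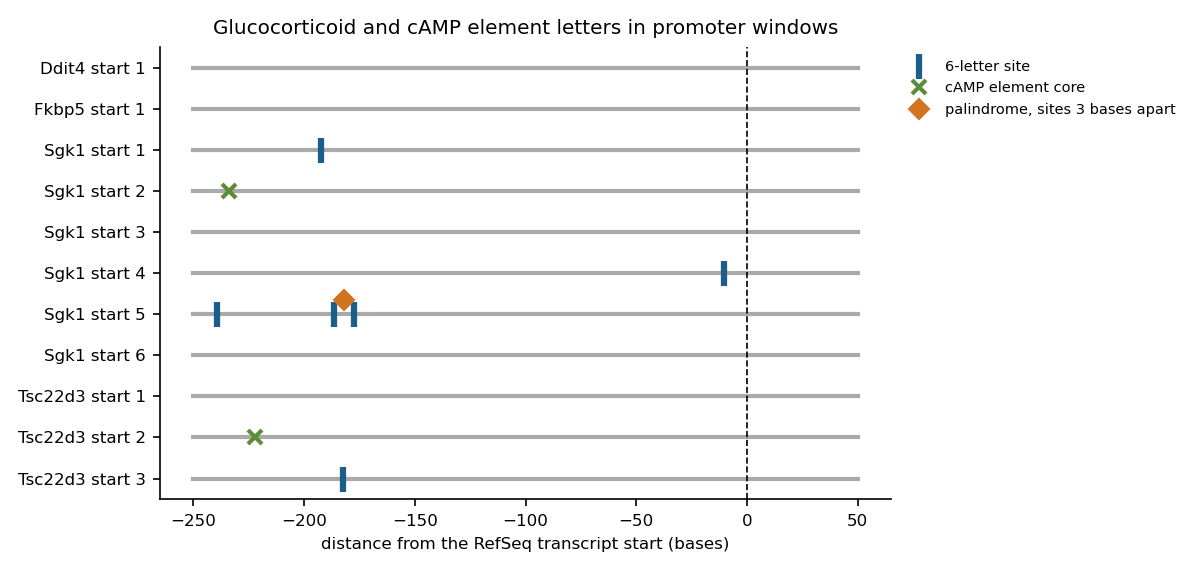
Positions of the searched letters in the 11 promoter windows of Ddit4, Fkbp5, Sgk1 and Tsc22d3, in bases from the RefSeq transcript start (dashed line, 0). Grey lines are the windows, blue ticks 6-letter sites, green crosses cAMP element cores, and the orange diamond is the palindrome, which is in 1 of the 6 Sgk1 windows.

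Signals below are MAS5 values with each array centred on the median of its measured probe sets, given on a linear scale with a pseudocount of 1.2 included. Differences are log2 differences of these values, and a size of 1, which is 2-fold, was called. With 1 array per group there is no replicate error and no test, so calls are by size alone, and precision is limited by having so few arrays. The scatter between arrays was wide: 12.3% to 16.5% of all genes were at least 2-fold apart, depending on the comparison. The array after 1 shock at 2 h and the sham array were the dimmest, with medians of 20.3 and 23.4, while the other shock arrays had 26.9 to 31.6. Their 3' to 5' Gapdh signal ratios, a sign of RNA or amplification quality, were 8.77 and 6.67, while the other shock arrays had 5.37 to 5.88. Their beta-actin ratios, 0.89 and 0.80, did not stand apart from those of the other shock arrays, 0.59 to 1.10. The labels name the tissue VMH in the title and PVN in a descriptive field. Of 7 VMH genes, Nr5a1 (67.3 to 158), Slc17a6 (439 to 563), Cbln1 (671 to 1041), Adcyap1 (611 to 1375) and Nkx2-2 (82.2 to 210) were measured. Fezf1 and Sox14 were not. Of 5 PVN and supraoptic genes, Trh (109 to 158) and Oxt (11.5 to 52.8) were measured, and Avp, Crh and Sim1 were not. Oxt stood 1.69 and 1.67 above sham after 7 shocks at 2 h and 6 h. Which tissue label is right was not tested.

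The receptor itself was measured by 3 probe sets of Nr3c1. On the brightest, the signal was 228 at 2 h and 359 at 6 h after 1 shock, and 241 at 2 h and 169 at 6 h after 7 shocks, against 202 in sham. The single-shock 6 h array was thus the highest and the 7 shock 6 h array the lowest, with sham between them. Against sham, the 3 probe sets differed by 0.17 to 0.66 after 1 shock at 2 h and by 0.35 to 0.83 after 1 shock at 6 h, all above 0. After 7 shocks at 2 h they lay between -0.02 and 0.25. After 7 shocks at 6 h they ranged from -0.59 to 0.31 and did not share a sign. No difference of Nr3c1 from sham reached 2-fold, but that after 1 shock at 6 h did without rescaling (1.22) and without the filter.

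The receptor gene passed 2-fold in 1 comparison, 7 shocks against 1 shock at 6 h, at -1.09. Its other probe sets stood at -0.94 and -0.18 in that comparison, and the mean of the 3 was -0.74, which is under 2-fold. Without rescaling the brightest was under 2-fold there too, while 6 h against 2 h after 1 shock stood at 1.19. Over the 5 arrays the brightest probe set spanned 1.09 log2 units, close to the median span of all genes, 0.98. As many as 42.6% of genes had a span as wide.

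Fkbp5 encodes a cochaperone that lowers the affinity of the receptor for its hormone and is itself induced by the receptor. On its brightest probe set the signal was 42.3 at 2 h and 95.4 at 6 h after 1 shock, and 136 at 2 h and 184 at 6 h after 7 shocks, against 74.5 in sham. The array after 1 shock at 2 h was the lowest of the 5 and the array after 7 shocks at 6 h the highest. Against sham, this probe set stood at -0.82 and 0.36 at 2 h and 6 h after 1 shock, and at 0.87 and 1.31 at 2 h and 6 h after 7 shocks. Only the last passed 2-fold, and 3.16% of genes were as high or higher there.

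Between shock arrays, Fkbp5 was higher after 7 shocks than after 1 at both times, by 1.69 at 2 h and 0.95 at 6 h. It was also higher at 6 h than at 2 h, by 0.44 after 7 shocks and by 1.17 after 1 shock. The values 1.69 and 1.17 both rest on the dim single-shock 2 h array, whose part in them was not tested. That array had the highest Gapdh ratio but not the highest beta-actin ratio. A second probe set of the same accession was below the filter, with deposited signals of 12.7 to 36.2, and read higher on the 7 shock 6 h array than on any other array too. There it stood 0.69 above sham. It stood opposite to the brighter one for 7 against 1 shock at 2 h, at -0.58, and for 6 h against 2 h after 1 shock, at -1.03. The probe sets shared a sign in 3 of 8 comparisons.

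Sgk1 encodes the serum and glucocorticoid regulated kinase, which acts on ion channels and transporters downstream of PI3 kinase. Its signal was 345 at 2 h and 231 at 6 h after 1 shock, and 303 at 2 h and 301 at 6 h after 7 shocks, against 104 in sham. All 4 shock arrays lay above sham. The deposited signals, before any scaling, were 264, 255, 360 and 353 in the same arrays, against 85.9 in sham. By rank within its own array, Sgk1 was between the 86.2 and 90.4 percentiles of all probe sets after shocks and at 75.6 in sham.

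The log2 differences of Sgk1 from sham were 1.74 after 1 shock at 2 h, 1.55 after 7 shocks at 2 h, 1.16 after 1 shock at 6 h and 1.54 after 7 shocks at 6 h. These 4 comparisons share the sham array, so its single reading enters each of them. At the matched time of 2 h, 1.28% of genes were as high or higher after 1 shock and 1.88% after 7 shocks. Among the shock arrays themselves Sgk1 varied less, with -0.19 for 7 against 1 shock at 2 h and 0.38 at 6 h. The difference of 6 h from 2 h was -0.58 after 1 shock and -0.0050 after 7 shocks.

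Sgk1 is known from oligodendrocytes as well as neurons. The 5 measured of 9 oligodendrocyte markers summed to 5063 to 5669 on the shock arrays, against 4936 in sham. None of them passed 2-fold against sham on its brightest probe set. The highest of the 3 Mobp probe sets stood at 1.07 after 1 shock at 2 h, and at 1.47 and 1.13 after 7 shocks at 2 h and 6 h. The lowest of the 3 Cnp probe sets stood at -1.28 after 1 shock at 6 h. Markers of neurons (8 of 8 measured) summed to 13037 to 14878 against 12530, and those of astrocytes (8 of 8) to 4078 to 4763 against 4352. The 3 measured of 8 endothelial markers summed to 592 to 898 against 594, the 6 of 8 microglial markers to 1077 to 1178 against 1455, and the 5 of 7 VMH markers to 2159 to 3311 against 2029. After 1 shock at 2 h, Adcyap1 alone of these VMH markers was above sham (0.56). Nr5a1 stood at -0.50, Nkx2-2 at -0.54, Cbln1 at -0.18 and Slc17a6 at -0.01, with a list median of -0.18. In the microglial sum, the brightest probe set of Csf1r made up 653 in sham and 227 to 357 on the shock arrays. Among the microglial markers, 3 of 6 were at least 2-fold below sham after 7 shocks at 2 h, against 6.72% of all genes. They were P2ry12 (-2.24), Aif1 (-1.58) and Csf1r (-1.52), with a list median of -1.06. The other probe set of Csf1r stood at 0.10 there. C1qb was above sham on its brightest probe set (0.90), with others down to -0.56. P2ry12 (-1.94) and Csf1r (-1.17) were also 2-fold below sham after 7 shocks at 6 h, against 7.07% of all genes. There the other probe set of Csf1r stood at 0.24. After 1 shock, Csf1r stood at -1.31 at 2 h and P2ry12 at -1.02 at 6 h, with 6.29% and 7.35% of all genes lower. The other probe set of Csf1r stood at -0.34 at 2 h after 1 shock. The 3 measured of 4 precursor markers of oligodendrocytes summed to 296 to 392 against 411. Of 7 arcuate markers, 4 were measured and summed to 558 to 1047 against 785. For 7 against 1 shock at 6 h, 3 of the 4 were at least 2-fold higher, against 7.91% of all genes. They were Npy (1.99), Tac2 (1.47) and Pomc (1.04). For 6 h against 2 h after 7 shocks these 3 stood at 1.51, 2.43 and 1.05, against 6.3% of all genes. Cartpt stood at -0.61 and -0.36 in these comparisons, and the other probe set of Pomc at 0.74 and 0.48. The 2 measured of 5 PVN and supraoptic markers summed to 143 to 210 against 126, and none of the 3 blood cell markers was measured. No marker probe set was at 0 on all 5 arrays. The part of cell makeup in the results was not tested.

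**Figure D2:**
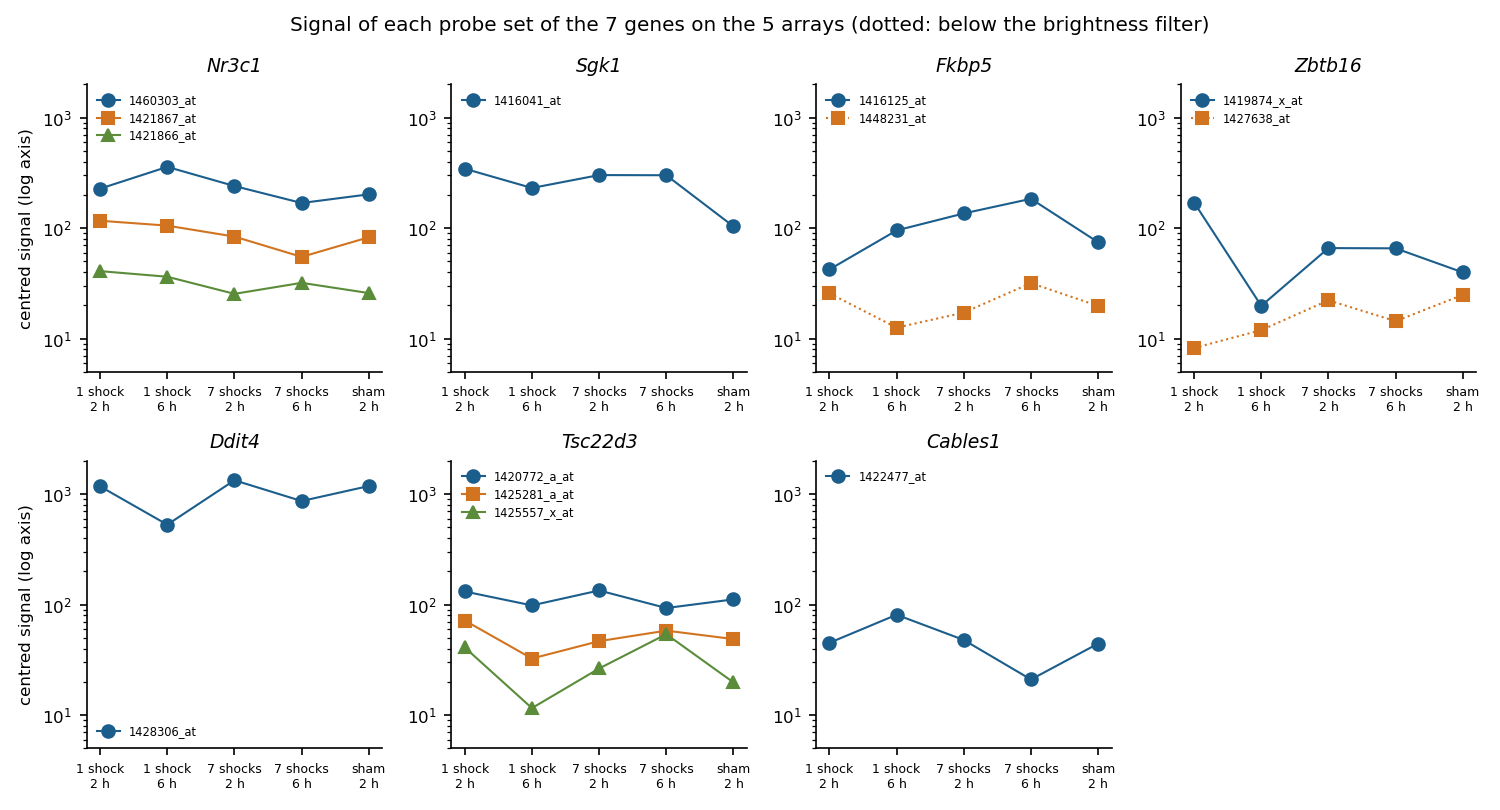
Centred signal (log axis) of each of the 13 probe sets on the 5 arrays, 1 panel per gene and 1 point per array, with lines only to join the points of a probe set. Sgk1 is lowest on the sham array (104 against 231 to 345), whereas the probe sets of Zbtb16 and of Tsc22d3 differ from each other in their pattern; dotted lines are probe sets below the filter.

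Zbtb16 encodes PLZF, a zinc finger repressor that glucocorticoids induce in several tissues. Its brighter probe set read 171 at 2 h and 19.8 at 6 h after 1 shock, and 66.0 at 2 h and 65.7 at 6 h after 7 shocks, against 39.7 in sham. The single-shock arrays were the highest and the lowest of the 5, a span of 3.11 log2 units that 1.14% of genes equalled or exceeded. Against sham it stood at 2.10 after 1 shock at 2 h, 0.73 after 7 shocks at 2 h, -1.01 after 1 shock at 6 h and 0.72 after 7 shocks at 6 h. The value at 6 h after 1 shock was under 2-fold in 4 of 6 alternative settings, the lowest in size being -0.61 without rescaling of the arrays.

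The 2 probe sets of Zbtb16 shared a sign against sham only after 1 shock at 6 h, at -1.01 and -1.06. The brighter one carries the suffix that marks probes able to bind other sequences, and the annotation gives it no accession. The other was below the filter, with centred signals of 8.22 at 2 h and 11.9 at 6 h after 1 shock, and 22.2 at 2 h and 14.4 at 6 h after 7 shocks, against 24.9 in sham. It was highest in sham and lowest after 1 shock at 2 h, at -1.60, where the brighter one was at 2.10. For 6 h against 2 h after 1 shock the brighter stood at -3.11 and the dimmer at 0.54. No direction for Zbtb16 at 2 h after 1 shock can be given from both. For 7 against 1 shock at 2 h the brighter stood at -1.37, and at -0.73, under 2-fold, without rescaling.

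Ddit4, also called REDD1, is a stress-induced inhibitor of the growth kinase complex mTORC1, and glucocorticoids induce it. Its only probe set read 1178 at 2 h and 530.3 at 6 h after 1 shock, and 1338 at 2 h and 868 at 6 h after 7 shocks, against 1187 in sham. The 2 h arrays and sham lay close together, and the single-shock 6 h array was the lowest. The differences from sham were -0.01 and 0.17 at 2 h after 1 and 7 shocks, and -1.16 and -0.45 at 6 h after 1 and 7 shocks. Ddit4 was lower at 6 h than at 2 h after both 1 shock (-1.15) and 7 shocks (-0.62). Without rescaling, the single-shock values were -0.76 against sham and -0.62 against 2 h, both under 2-fold.

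Tsc22d3 encodes GILZ, a leucine zipper protein that carries part of the anti-inflammatory action of glucocorticoids. The brightest of its 3 probe sets read 132 at 2 h and 98.5 at 6 h after 1 shock, and 134 at 2 h and 93.2 at 6 h after 7 shocks, against 112 in sham. These values span 0.53 log2 units, and 83.2% of genes had a span as wide or wider. The 2 h shock arrays were the higher ones and the 6 h arrays the lower ones, with sham between them. All of its differences from sham, 0.24, 0.27, -0.18 and -0.26 in the order 1 and then 7 shocks at 2 h, and 1 and then 7 shocks at 6 h, were far from 2-fold.

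The dimmer probe sets of Tsc22d3, which carry other accessions, differed more between arrays. The dimmest read 41.0 at 2 h and 11.6 at 6 h after 1 shock, and 26.4 at 2 h and 54.0 at 6 h after 7 shocks, against 19.8 in sham. It stood 1.05 above sham after 1 shock at 2 h and 1.45 above it after 7 shocks at 6 h, but its suffix also marks probes that may bind other sequences. The other probe sets of Tsc22d3, the brightest included, carry another letter suffix. All 3 drop out where probe sets with any letter suffix are left out. All 3 probe sets were above sham after 1 shock at 2 h, by 0.24 to 1.05, and below it after 1 shock at 6 h, by -0.77 to -0.18. From 7 shocks at 6 h no common direction emerged, with -0.26, 0.25 and 1.45 from the brightest to the dimmest.

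Cables1 encodes an adaptor that links the kinases Cdk5 and Abl1. It read 45.1 at 2 h and 81.0 at 6 h after 1 shock, and 47.9 at 2 h and 21.0 at 6 h after 7 shocks, against 44.4 in sham. The 2 h arrays were at the level of sham, with differences of 0.02 after 1 shock and 0.11 after 7 shocks, while the 6 h arrays lay on opposite sides of it, at 0.87 after 1 shock and -1.08 after 7 shocks. At 6 h, Cables1 stood at -1.95 for 7 shocks against 1, and 99.1% of genes were as high or higher. It differed by -1.19 between 6 h and 2 h after 7 shocks and by 0.84 between these times after 1 shock. The deposited signal after 7 shocks at 6 h was 23.5, under the median of that array, and the call against sham was -0.59 without rescaling. Of 7 listed partners, 4 were measured and none passed 2-fold in any comparison on its brightest probe set, while without rescaling 1 did in each of 4 comparisons. Against sham after 1 shock at 2 h, Robo1 stood at -0.25, Cdk5r1, an activator of Cdk5, at -0.15 and Ctnnb1, or beta-catenin, at 0.10. The lowest of the 3 probe sets of Ctnnb1 stood at -2.32 after 7 shocks at 2 h, -2.26 after 1 shock at 6 h and -2.18 after 7 shocks at 6 h, where the brightest lay between -0.01 and 0.09. Cdk5 itself read 129.7 to 137 on all 5 arrays.

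**Figure D3:**
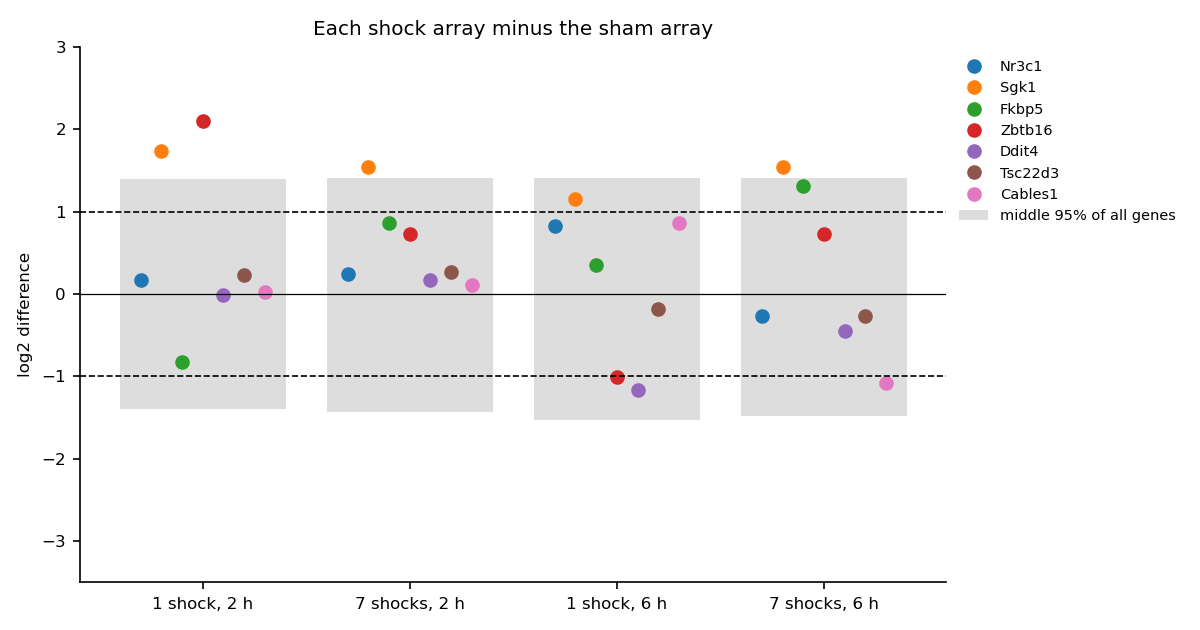
Log2 differences of the 7 genes (points) for each shock array minus the sham array, with grey bars for the middle 95% of all 6650 genes and dashed lines at 2-fold. Sgk1 lies above the upper dashed line in all 4 comparisons, which share the sham array, at 1.16 to 1.74.

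By comparison, 2 of the 7 genes were at least 2-fold higher than sham after 1 shock at 2 h, Zbtb16 and Sgk1, and none lower. Of all genes, 5.98% were higher and 6.29% lower by 2-fold, 12.3% together. The median of the 7 was 0.17, against 0.01 for all genes. After 7 shocks at 2 h, 1 of the 7 was higher, Sgk1, and none was lower, against 6.57% higher and 6.72% lower of all genes, 13.3% together. All 7 were above 0, with a median of 0.27 against 0.01 for all genes, where 50.6% were above 0. Without rescaling, 3 of the 7 passed 2-fold there, and the split of all called genes was 90.3% higher against 49.4% with it.

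At 6 h after 1 shock, 1 of the 7 was at least 2-fold higher than the 2 h sham, Sgk1, and 2 were lower, Ddit4 and Zbtb16. The shares of all genes were 6.74% and 7.35%, 14.1% together, and the median of the 7 was 0.36 against 0.06. After 7 shocks at 6 h, Sgk1 and Fkbp5 were higher and Cables1 lower, against 6.78% and 7.07% of all genes, 13.8% together, with a median of -0.26 against 0.01. The sham was not matched in time in either case. Without rescaling, 33.7% of called genes were higher at 2 h after 1 shock, 83.1% at 6 h after 1 shock and 88.6% at 6 h after 7 shocks, against 48.8%, 47.8% and 49.0% with it.

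Between 7 shocks and 1 shock at 2 h, Fkbp5 was higher and Zbtb16 lower by at least 2-fold, against 6.92% and 6.83% of all genes, 13.7% together. At 6 h, Zbtb16 was higher, and Nr3c1 and Cables1 were lower, against 7.91% and 8.59% of all genes, 16.5% together. Between 6 h and 2 h after 1 shock, Fkbp5 was higher, and Zbtb16 and Ddit4 were lower, against 7.41% and 7.59%, 15% together. Between 6 h and 2 h after 7 shocks, none of the 7 was higher and Cables1 was lower, against 6.3% and 6.65%, 12.9% together. Here 1 of the 7 was above 0, Fkbp5, with a median of -0.51, while 51.6% of all genes were above 0 and their median was 0.02. Without rescaling, the called genes were 94.4% higher for 7 against 1 shock at 2 h, 58.3% at 6 h and 90.0% for 6 h against 2 h after 1 shock, against 50.3%, 47.9% and 49.4% with it.

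**Figure D4:**
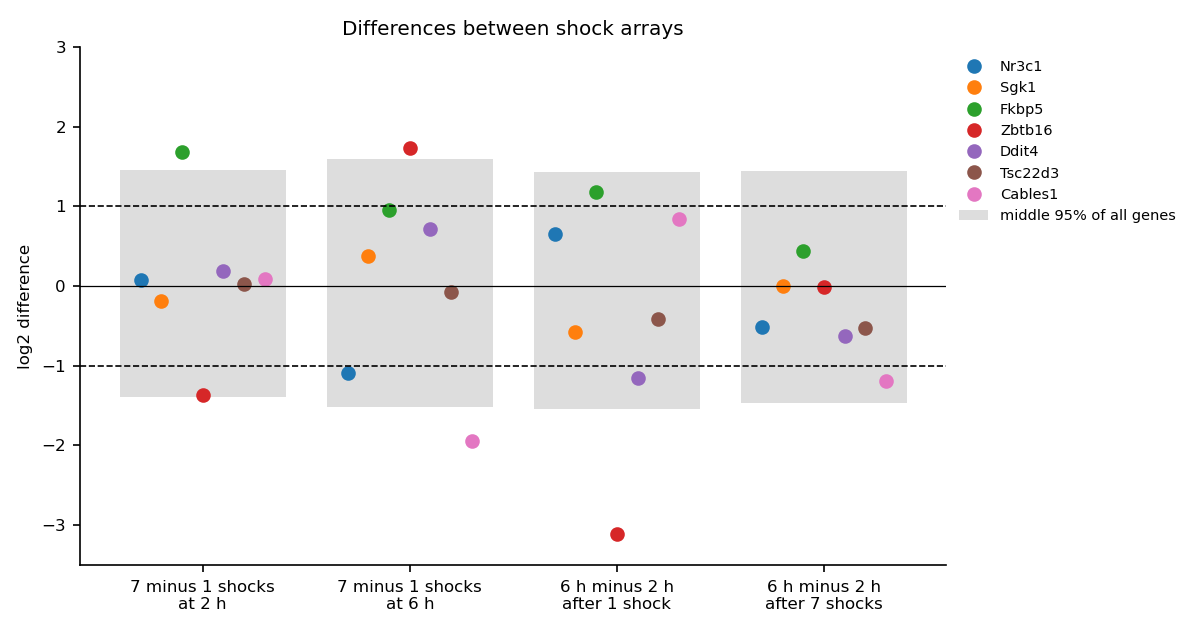
Log2 differences of the 7 genes (points) between shock arrays, 7 minus 1 shocks and 6 h minus 2 h, with grey bars for the middle 95% of all 6650 genes and dashed lines at 2-fold. Zbtb16 stands at -3.11 for 6 h minus 2 h after 1 shock, and Cables1 at -1.95 for 7 minus 1 shocks at 6 h.

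Other genes that glucocorticoids induce were taken as a list of 26, of which 17 were measured. After 1 shock at 2 h, 2 of them were at least 2-fold higher than sham, the clock gene Per1 (1.11) and the MAP kinase phosphatase Dusp1 (1.10), and 1 was lower, the zinc finger factor Klf15 (-2.17), against 5.98% higher and 6.29% lower of all genes. Without rescaling none of the 17 was higher, with Per1 at 0.98 and Dusp1 at 0.97. The insulin receptor substrate Irs2 (0.98), the sulfotransferase Sult1a1 (0.94) and the cell cycle inhibitor Cdkn1a (0.79) followed. The median was 0.47, against 0.01 for all genes. After 7 shocks at 2 h, 1 of the 17 passed 2-fold, Per1 (1.36), against 6.57% of all genes, with Irs2 at 0.99 and the repressor Bcl6 at 0.89, and the median was 0.15. There 4 were higher without rescaling, and 2 with quantile normalization or a pseudocount of 0.

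Between 6 h and 2 h after 1 shock, 8 of the 17 were at least 2-fold lower, against 7.59% of all genes, and 1 was higher. The 8 were the receptor kinase inhibitor Errfi1 (-1.88), the phagocytic receptor Mertk (-1.58), Irs2 (-1.44), the pyruvate dehydrogenase kinase Pdk4 (-1.42), Sult1a1 (-1.36), Dusp1 (-1.28), Cdkn1a (-1.12) and Per1 (-1.04). Klf15 was the higher one, at 1.83, with signals of 29.6 at 6 h and 8.35 at 2 h. All of these values include the single-shock 2 h array, the dimmest one, whose part in them was not tested. Without rescaling, 2 of the 17 were lower, against 2.63% of all genes, whose median was 0.59. The list median was -0.26 against 0.06 for all genes with rescaling, and 0.27 against 0.59 without. The same time comparison after 7 shocks gave 2 lower, Per1 (-1.07) and Bcl6 (-1.04), and none higher, against 6.65% lower and 6.3% higher of all genes. Neither passed with a pseudocount of 6.1. Whether the times after 1 and 7 shocks differ for this list was not tested.

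At 6 h after 1 shock against sham, Mertk (-2.14), Errfi1 (-1.27) and Pdk4 (-1.14) were lower and no listed gene was higher, against 7.35% lower and 6.74% higher of all genes, with a median of -0.18 against 0.06. The balance turned without rescaling, where 3 were higher and 1 lower, with a median of 0.22 against 0.46 for all genes. None of the 17 passed 2-fold after 7 shocks at 6 h, and the median was 0.04. For 7 against 1 shock at 2 h, Klf15 was higher (2.66), and Sult1a1 (-1.32), Pdk4 (-1.16), Errfi1 (-1.12) and the metallothionein Mt2 (-1.03) were lower, against 6.92% higher and 6.83% lower of all genes. The Klf15 value again rests on its signal of 8.35 after 1 shock at 2 h. Without rescaling, 3 were higher and none of the 17 was lower. At 6 h, Mertk was higher (1.60) and Mt1 lower (-1.05), against 7.91% and 8.59% of all genes. Without rescaling 2 were higher and none lower at 6 h, against 655 and 469 of all genes.

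**Figure D5:**
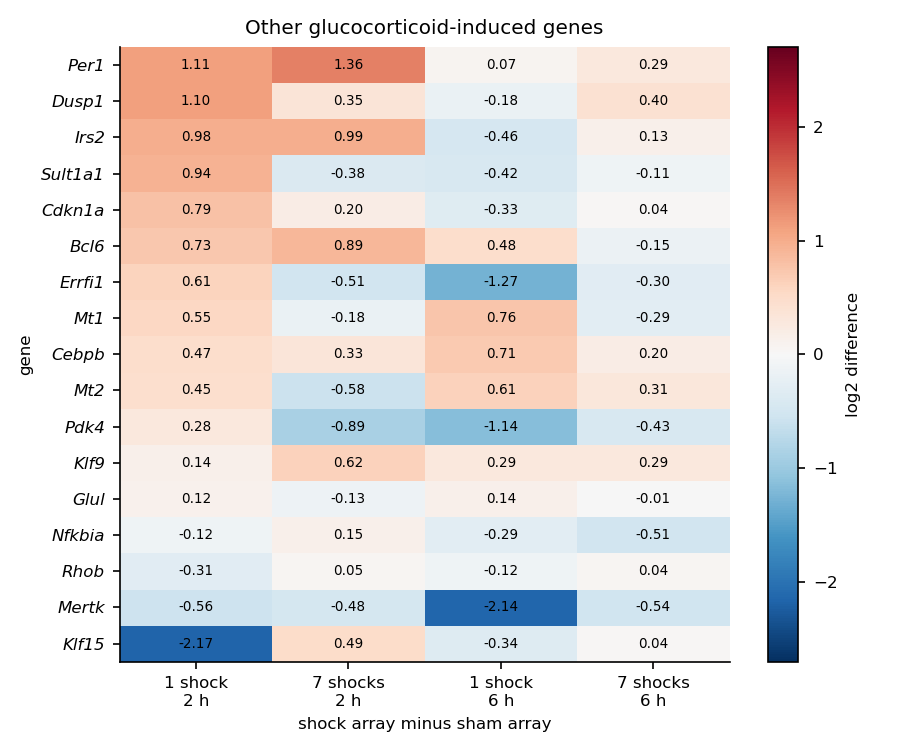
Log2 differences of 17 other glucocorticoid-induced genes for each shock array minus the sham array, sorted by the first column, with red for higher and blue for lower than sham. Per1 is at 1.11 and 1.36 in the 2 h columns and at 0.07 and 0.29 in the 6 h columns. Klf15 is at -2.17 in the first column, where its signal was only 8.35.

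Among genes that set the access of the hormone, 2 of 9 were measured. Hsd11b1, the enzyme that regenerates active glucocorticoid inside cells, read 142 at 2 h and 94.5 at 6 h after 1 shock, and 42.8 at 2 h and 72.5 at 6 h after 7 shocks, against 24.5 in sham. All shock arrays were above sham, by 2.53, 1.95, 0.80 and 1.56 in that order, but the deposited sham signal of 19.4 was under the median of its array. Abcb1a, a transporter that pumps steroids out across the blood-brain barrier, read 27.4, 19.3, 29.9 and 48.9 in the same order, against 61.3 in sham. It was below sham by 2-fold in 3 of 4 comparisons, at -1.16 after 1 shock at 2 h, -1.66 after 1 shock at 6 h and -1.03 after 7 shocks at 2 h, and at -0.33 after 7 shocks at 6 h. The call after 7 shocks at 2 h was lost without rescaling (-0.53), and a pseudocount of 6.1 left only that after 1 shock at 6 h (-1.48). The CRH receptor Crhr2 was dim, with deposited signals of 18.8 or less on both of its probe sets.

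Of 13 listed chaperones and cochaperones around the receptor 10 were measured, with medians against sham of 0.13 to 0.22. Hsp90aa1 read 1551 to 1720 on the shock arrays and 1473 in sham, and the relative of Fkbp5 that aids receptor transport, Fkbp4, read 135 to 175 against 150.4. The inducible Hspa1a was at least 2-fold higher in 3 comparisons with sham, at 1.05 after 1 shock at 2 h, 2.16 after 1 shock at 6 h and 1.09 after 7 shocks at 6 h. The shares of all genes 2-fold higher were 5.98%, 6.74% and 6.78%. With a pseudocount of 6.1 only the 6 h value after 1 shock passed, and without rescaling the value after 1 shock at 2 h was 0.92 and that after 7 shocks at 2 h was 1.07. The cochaperone Stip1, which joins Hsp70 to Hsp90, was at -1.13 against sham after 7 shocks at 6 h, at -1.08 for 7 against 1 shock at 6 h and at -1.32 for 6 h against 2 h after 7 shocks, of which the last alone passed 2-fold without rescaling. Dnajb1, a partner of Hsp70, stood at 0.99 after 1 shock at 2 h, where its probe sets reached 1.39.

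Of the receptor's coregulators, 5 of 10 were measured, and on the brightest probe set none was 2-fold above sham. The acetyltransferase Crebbp stood at -1.05 after 1 shock at 2 h and the corepressor Nrip1 at -1.46 after 7 shocks at 2 h, where its other probe set was at -0.20. Without rescaling Nrip1 was at -0.96, and Crebbp was under 2-fold with a pseudocount of 6.1. That other probe set was above sham at 6 h, by 2.37 after 1 shock and 1.67 after 7 shocks, where the brightest read -0.23 and 0.28. Nrip1 was higher at 6 h than at 2 h after 7 shocks on both probe sets, by 1.74 and 1.87. The corepressor subunit Tbl1xr1 was at -2.02 after 1 shock at 6 h and -1.32 after 7 shocks at 2 h, but its 4 probe sets reached from -2.02 to 0.01 and from -1.32 to 0.54. Its call after 7 shocks at 2 h was lost without rescaling (-0.82), and with the mean of the probe sets both it (-0.04) and Nrip1 were under 2-fold. The coactivator Ncoa1 ranged from -0.35 to 0.06 against sham on its brightest probe set and from -0.89 to -0.46 on the other.

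Genes around the kinase Sgk1 were measured for 9 of 10. The creatine transporter Slc6a8, whose activity Sgk1 raises, was higher than sham by 1.39 after 1 shock at 2 h, 1.48 after 7 shocks at 2 h and 1.98 after 7 shocks at 6 h, and stood at 0.02 after 1 shock at 6 h. Its other probe set gave 0.69, 1.34 and 1.27 in the first 3 of these. The ubiquitin ligase Nedd4l, a substrate of Sgk1, was higher by 1.75 and 1.72 on its probe sets for 7 against 1 shock at 2 h. After 1 shock at 6 h it was 1.12 above sham and 2.06 above the 2 h array, but its other probe set gave -0.09 and 0.19 there. The related kinase Sgk2 read 108 after 7 shocks at 6 h, against 14.5 to 29.3 on the other 4 arrays. Sgk3 passed 2-fold in no comparison by its brightest probe set, and the other one gave 1.25 for 7 against 1 shock at 6 h. The kinase Gsk3b, which Sgk1 can phosphorylate, stood at -1.03 for 6 h against 2 h after 7 shocks, and under 2-fold with a pseudocount of 6.1. Foxo3, a transcription factor that the kinase keeps out of the nucleus, was lower at 6 h than at 2 h after 1 shock on all 3 probe sets, by -1.61 to -1.14, and by -0.97 on the brightest without rescaling. Ndrg1, another substrate, stood at -1.13 for 7 against 1 shock at 6 h, where its 4 probe sets reached from -1.13 to 0.86.

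Partners of Ddit4 in the mTORC1 pathway were measured for 6 of 17, and none passed 2-fold in any of the 8 comparisons on its brightest probe set. Without rescaling, 4 of the 6 were higher after 7 shocks at 6 h (median 1.04 against 0.50 for all genes), 2 after 7 shocks at 2 h, and 1 in each of 3 other comparisons. Tsc1, through which Ddit4 acts, was 0.58 to 0.93 above sham in the 4 comparisons. Rheb, the GTPase that switches mTORC1 on, was 0.71 above sham after 1 shock at 2 h and 0.06 above it after 7 shocks at 2 h. The kinase Mtor itself was 0.04 above it after 1 shock at 2 h and 0.57 to 0.69 above it in the others, where its other probe set gave 0.01 to 0.75. Atf4, a stress factor that can induce Ddit4, read 1122 at 2 h and 690.2 at 6 h after 1 shock, and 858 at 2 h and 916 at 6 h after 7 shocks, against 897 in sham. On this probe set Atf4 was, like Ddit4, lowest on the single-shock 6 h array, at -0.38 against sham, but its other probe set stood at 1.18 there. Of the relatives of Tsc22d3, Tsc22d1 read 2195.5 to 2425 on the shock arrays and 2095 in sham on the brightest of 5 probe sets, which reached down to -1.69 after 7 shocks at 6 h. Tsc22d4 ranged from -0.47 to 0.51 against sham.

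The genes whose profile over the 5 arrays was nearest to each of the 7 were found by the root mean square of their log2 differences, each gene relative to its own mean. Nearest to Sgk1 were Nab2, a corepressor of Egr factors, at 0.11, the antiproliferative gene Tob2 at 0.11 and the ubiquitin protease Usp34 at 0.13. Nab2 read 50.9 at 2 h and 36.3 at 6 h after 1 shock, and 45.4 at 2 h and 37.9 at 6 h after 7 shocks, against 15.9 in sham. Nearest to Fkbp5 was Chrac1 at 0.07, nearest to Ddit4 was the tryptophan tRNA ligase Wars at 0.07, and nearest to Nr3c1 was Rnasek at 0.07. Cables1 lay nearest to Vrk2 at 0.10 and Tsc22d3 to Larp4b at 0.02. Zbtb16 had no close neighbour, the nearest being Lmo4 at 0.26. With 5 arrays and 6650 genes, near profiles describe these arrays only.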

How the data were processed

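RNA of microdissected VMH was amplified from 2 ng and hybridised to Affymetrix mouse arrays, 1 array per group. The deposited values are intensity values made with MAS5, per the submitters' processing notes, and lie on a linear scale. The version and target level of MAS5 are not given here. Of 22690 probe sets, 64 controls, 691 with several symbols and 1555 without a symbol were left out. A pseudocount of 1.2 (10th percentile) was added before log2, the top 50% of probe sets by mean log2 value were kept (10402 probe sets, 6650 genes), arrays were centred on their medians over these, and a gene took its brightest kept probe set. No test is possible with 1 array per group. The calculation was tested on simulated data. Members and lists were chosen with earlier results of these data known, and the report names list genes past 2-fold in a comparison by their brightest probe set, otherwise the 3 furthest from 0 after 1 shock at 2 h, and up to 3 nearest profiles. Hsp90aa1, Fkbp4, Dnajb1, Ncoa1, Sgk3, Mtor, Cdk5 and Crhr2 fall outside that rule and were chosen after their values were seen. The alternatives were no rescaling, quantile normalization, a pseudocount of 0 or 6.1 (25th percentile), and no filter or the top 25%. Others were the mean of a gene's probe sets, and leaving out every probe set with a letter suffix, among them those able to bind other sequences. Promoters are from RefSeq, GRCm38.p6. Python 3.11.15, numpy 2.4.6, pandas 2.3.3 and matplotlib 3.10.9 were used.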

Additional observations from a re-analysis of the deposited data

Results flagged for a closer look

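Zbtb16 was singled out because the difference between 7 shocks and 1 shock ran in opposite directions at the 2 times, at 1.73 on the log2 scale at 6 h and at -1.37 at 2 h. Each value sets 1 array against 1 array, and the difference between them was not tested. The probe set below the filter stood at 0.27 and 1.44 in these comparisons, both above 0. Without rescaling the 2 h value was -0.73 and thus under 2-fold, with the directions still opposite.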

How the results depend on the processing

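Of 56 differences (7 genes in 8 comparisons) 18 passed 2-fold, and 6 of these were under it in at least 1 alternative. A further 9 passed it in an alternative only, and 0 of the called ones changed sign. All calls of Sgk1 against sham and those of Fkbp5 held in every alternative that measured the gene. Each of these alternatives read Fkbp5 from its brighter probe set alone. Without rescaling, 3 of the 7 genes passed 2-fold after 7 shocks at 2 h against sham (1 with it) and 1 for 7 against 1 shock at 2 h (2 with it). In the top 25% of probe sets, 4 of the 7 genes were left, and 1 passed after 1 shock at 2 h (2), 1 after 7 shocks at 6 h (3), 0 for 7 against 1 shock at 2 h (2), 1 at 6 h (3), 1 for 6 h against 2 h after 1 shock (3) and 0 after 7 shocks (1). Without probe sets of any letter suffix, which leaves 5 genes, 1 passed after 1 shock at 2 h (2) and 1 for 7 against 1 shock at 2 h (2). In that setting Tbl1xr1 changed sign to 0.22 after 7 shocks at 2 h against sham, -0.050 for 7 against 1 shock at 6 h and 0.35 for 6 h against 2 h after 1 shock, and Ndrg1 to 0.84 for 7 against 1 shock at 6 h; here the gene is read from another probe set. Over all genes, 398 to 526 were called higher and 418 to 571 lower across the 8 comparisons. These became 1422 to 1785 and 1357 to 1925 with no filter, where more genes enter, 85 to 136 and 83 to 162 in the top 25%, where fewer do, and 291 to 1769 and 104 to 572 without rescaling. Dim signals, single probe sets and the lack of replicate arrays limit all of these. No paired analysis was possible because each group has 1 array.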
